A study of Mus musculus with 6 samples.

Results

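Core splicing factors and heterogeneous nuclear ribonucleoproteins (hnRNPs) were examined in bulk RNA-Seq of hepatic CD4+ T cells. The genes were taken from the count table by symbol: the numbered SR proteins (Srsf), the hnRNPs (Hnrnp), the subunits of splicing factors 3a and 3b (Sf3a, Sf3b), the Sm proteins with the U1 and U2 proteins named like them (Snrp), and the numbered snRNP proteins (Snrnp). Of 28430 symbols, 59 met this rule, and 1 further symbol, a pseudogene, was dropped. They were 11 SR proteins, 20 hnRNPs, 9 SF3a and SF3b subunits, 12 Sm and U1 or U2 proteins and 7 snRNP-specific proteins. A total of 58 passed the filter on low counts and were tested. The exception was Snrpn.

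The spliceosome removes introns from pre-mRNA. Its U1 small nuclear ribonucleoprotein (snRNP) marks the 5' splice site, and the U2 snRNP, which carries SF3a and SF3b, marks the branch point. Most snRNPs are built on a ring of Sm proteins, while SR proteins mostly favour and many hnRNPs mostly oppose the use of a nearby exon. In T cells these proteins are known for the splicing of Ptprc, which encodes CD45, where hnRNPLL promotes the skipping of variable exons after activation.

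The cells were CD4+ T cells sorted by flow cytometry from the livers of mice fed for 8 weeks a choline-deficient diet with 60 kcal% fat and 0.1% methionine, which induces metabolic dysfunction-associated steatohepatitis (MASH). WT mice were compared with dKO mice (Nr4a1 fl/fl Nr4a2 fl/fl Cd4-Cre), in which Cre driven by Cd4 removes both genes from T cells, including CD8+ T cells, as these pass a stage at which Cd4 is active. There were 3 libraries per group, described in the methods as independent biological replicates. The labels do not give the age or sex of the mice.

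Each library held 5747744 to 11078184 counted reads, of which 1.30% to 1.44% fell on the 59 genes. Reads on Nr4a2, a gene deleted by design in dKO, were not lower in the libraries labelled dKO. Nr4a2 stood at 159.5, 284 and 234 CPM (normalised read counts scaled to a common library total of 1000000) in WT 1 to 3. In dKO 1 to 3 it stood at 477, 539 and 391 CPM (log2 fold change 1.05 ± 0.21 SE, edgeR adjusted p = 0.0308), opposite to a loss of the whole transcript. Which exons are deleted was not examined, so these counts per gene cannot show whether the deletion took place. The call on Nr4a2 was lost without WT 3, dKO 1 or dKO 2 (adjusted p up to 0.128). All directions below are therefore between the libraries as labelled, and WT and dKO stand for the libraries with these labels. The T cell markers in the table (9 of 12 listed) summed to 4010 to 4725 CPM in WT and 4073 to 4381 CPM in dKO. Macrophage markers summed to 6.32 to 10.98 and 5.61 to 8.70 CPM, with Adgre1, C1qa and 3 others of 13 at 0 in every library. Of the 3 tested, 2 had a log2 fold change above 0. The other, Fcer1g, named after its values were seen, was called lower in dKO (mean 4.17 against 0.58 CPM, edgeR adjusted p = 0.0186). Hepatocyte markers summed to 3.37 to 5.96 and 4.21 to 6.75 CPM, and B cell markers to 5.61 to 34.7 and 5.05 to 11.6 CPM. Treg markers summed to 1129 to 1833 CPM in WT and 3257 to 4302 CPM in dKO, with 6 of 7 called higher, and both CD8 genes were called higher (192 to 244 against 285 to 349.8 CPM). Immediate early and stress genes ranged from 4931 to 17748 CPM in WT and from 5360 to 10253 CPM in dKO. The part of these differences in the values below was not tested. In bulk samples fewer cells of a type and less RNA per cell cannot be told apart.

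None of the splicing factors differed between the groups at an adjusted p under 0.05. In edgeR's quasi-likelihood test 0 of 58 were called, against 3.31% of the 15694 genes tested (2.15% higher and 1.17% lower in dKO). At an unadjusted p under 0.05 there were 8 (13.8%), 4 higher and 4 lower, against 19.2% of all genes (10.5% higher and 8.71% lower). Among the genes with a mean of at least 10 CPM, 4.28% were called. The lowest adjusted p of a member was 0.0768. The study's thresholds of fold and unadjusted p were applied to the edgeR values, and 0 members passed, against 5.91% of all genes. The study's own p-values were not used, so this share need not match its count. DESeq2 called 1 member (Srsf5) and 5.05% of its genes, and limma-voom called 0 members and 3.05%. Without a filter on low counts edgeR called 4 members and 4.85% of genes, namely Srsf5 as higher and Hnrnpll, Sf3a2 and Sf3b4 as lower.

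The intervals of most members were narrow. For 50 of the 58 (86.2%) the 95% interval of the fold change lay within 1.5-fold either way, as it did for 43.9% of all tested genes and for 68.1% of the 9509 genes with a mean of at least 10 CPM, a level that 56 members reached. The 8 members whose interval reached past 1.5-fold were Srsf5, Snrpb2, Srsf12, Hnrnpll, Sf3a2, Sf3b4, Snrpd3 and Snrnp25. Only Srsf12 passed 1.5-fold by its estimate, compared with 11.4% of all tested genes, which include genes of low counts. The median log2 fold change was 0.01 over the members, with 30 above and 28 below 0, and -0.01 over all genes. The sign of the members' median turned with the scaling and with the library left out, over a range of -0.03 to 0.03. The SD of the log2 fold changes was 0.22 over the members, 0.44 over all genes and 0.35 over genes with at least 10 CPM. By the median absolute log2 fold change the members (0.16) lay close to the genes with at least 10 CPM (0.17).

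**Figure D1:**
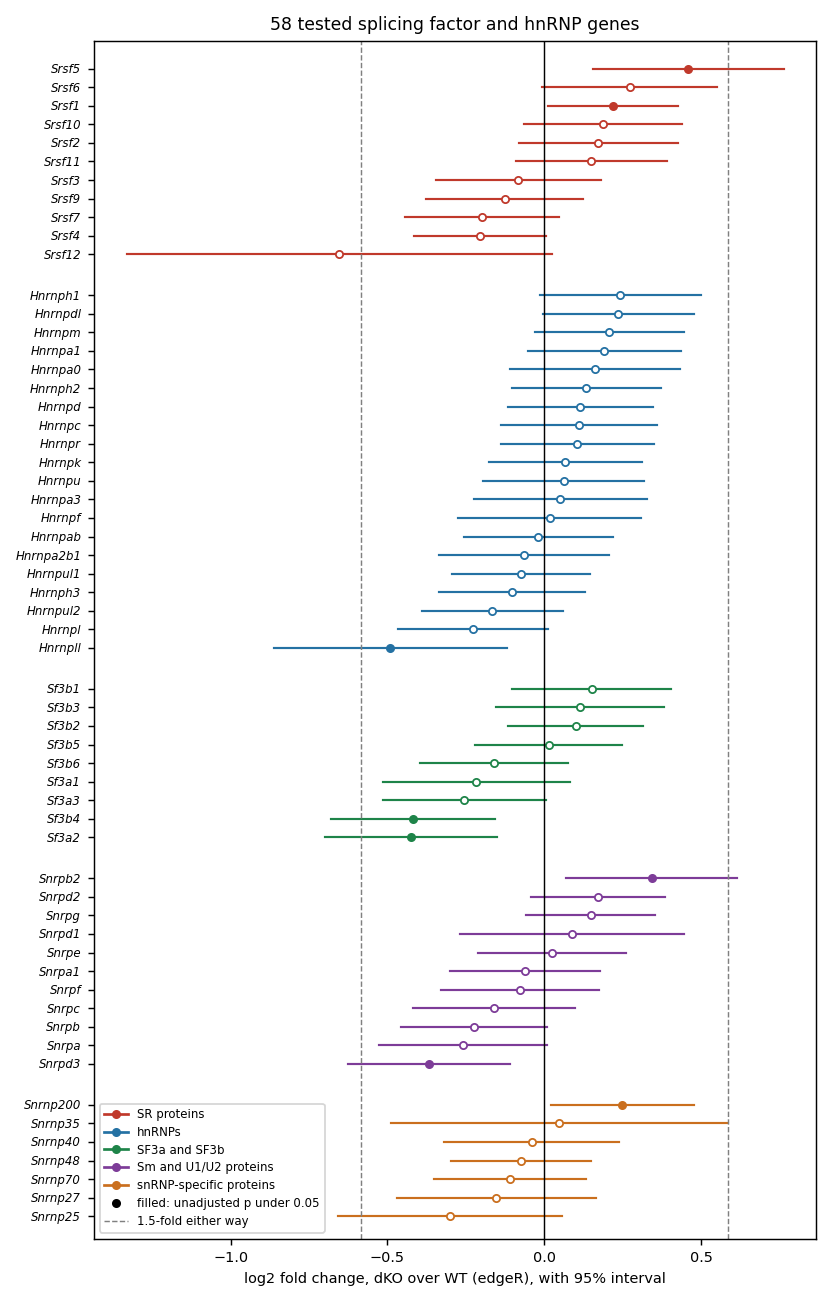
Log2 fold change of dKO over WT for each of the 58 tested genes by family, with its 95% interval from edgeR. The dashed lines mark 1.5-fold either way. Filled points have an unadjusted p under 0.05 (8 genes), and 8 intervals cross a dashed line.

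**Figure D2:**
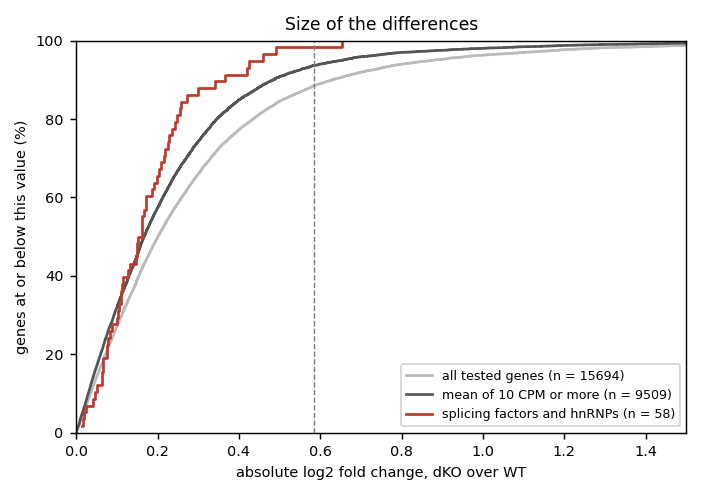
Share of genes (%) at or below each absolute log2 fold change, for all tested genes, genes with a mean of at least 10 CPM, and the 58 splicing factors and hnRNPs. The dashed line marks 1.5-fold, which 1 member passed. The median absolute log2 fold change was 0.16 for the members, 0.20 for all genes and 0.17 for genes with at least 10 CPM.

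Summed over the 59 genes, the level was 13545 ± 554 CPM in WT and 14036 ± 641 CPM in dKO (SD, n = 3), a ratio of 1.04. The ranges of the groups overlapped. The replicates were close, with a median coefficient of variation of 8.85% in WT and 7.28% in dKO. In 20 members the lowest library of a group stood above the highest of the other (34.5%, 11 higher and 9 lower in dKO), against 25% of all tested genes (13.2% higher and 11.7% lower) and 29.1% of those with at least 10 CPM. That count depended on single libraries, being 34 without WT 1 (37.1% of all genes were apart then) and 32 without dKO 3 (37.5%).

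SR proteins bind exonic enhancers through RNA recognition motifs and recruit the snRNPs through a domain rich in arginine and serine. Of the 11, 6 had a log2 fold change above 0 and 5 below, with a median of 0.15 that kept its sign under every alternative (0.11 to 0.18). The highest log2 fold change of any member was that of Srsf5, an SR protein whose own transcript is alternatively spliced. Srsf5 stood at 468, 427 and 521 CPM in WT and at 727, 684 and 535 CPM in dKO. The groups did not overlap, but dKO 3 lay near the highest WT library. The means were 472 ± 46.9 and 649 ± 101 CPM (SD, n = 3), with a log2 fold change of 0.46 ± 0.14 (SE; edgeR adjusted p = 0.0938). Left out in turn, the libraries gave 0.37 to 0.57, and edgeR called Srsf5 in none of these fits. DESeq2 called it (adjusted p = 0.0338), over a range of 0.0106 to 0.354 among all alternatives.

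Srsf6, another SR protein that acts on exon inclusion, stood at 175, 141 and 196 CPM in WT and at 212, 219 and 188 CPM in dKO (0.27 ± 0.13, edgeR adjusted p = 0.271). Here dKO 3 fell inside the WT range. Srsf1, the founding member that stimulates the use of 5' splice sites, stood at 116, 116 and 124 CPM in WT and at 138, 135 and 142 CPM in dKO (0.22 ± 0.10, edgeR adjusted p = 0.23). These groups were apart by a small step with little spread in either. Srsf3, the smallest SR protein, which also serves mRNA export, ranged from 387 to 464 CPM in WT and from 380.4 to 452 CPM in dKO (-0.08 ± 0.12, adjusted p = 0.77). The groups overlapped almost fully. Srsf11, an SR-like protein first found with U2 auxiliary factor, ranged from 402 to 457 CPM in WT and from 449 to 491 CPM in dKO (0.15 ± 0.11, adjusted p = 0.513), with an overlap at the margin.

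Srsf12, a low-level relative of Srsf10, had the lowest log2 fold change of all members. Its levels were 3.16, 4.82 and 2.98 CPM in WT and 1.96, 2.35 and 2.53 CPM in dKO (-0.65 ± 0.31, adjusted p = 0.276). The groups were apart, yet 1 high WT library carried much of the distance. Srsf4, named after its values were seen because its groups were apart, stood at 89.7 to 94.2 CPM in WT and at 76.2 to 84.8 CPM in dKO (-0.20 ± 0.10, edgeR adjusted p = 0.275). Its exons overlap those of the antisense transcript Gm12992 over 1532 bases, and without known use of strand in counting the reads of the pair cannot be told apart. Srsf2, Srsf7, Srsf9 and Srsf10 had log2 fold changes of -0.20 to 0.19, and their groups overlapped. Summed, the SR proteins had 2511 ± 107 CPM in WT and 2760 ± 224 CPM in dKO (SD, n = 3), a ratio of 1.10, with dKO 3 (2503 CPM) inside the WT range.

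**Figure D3:**
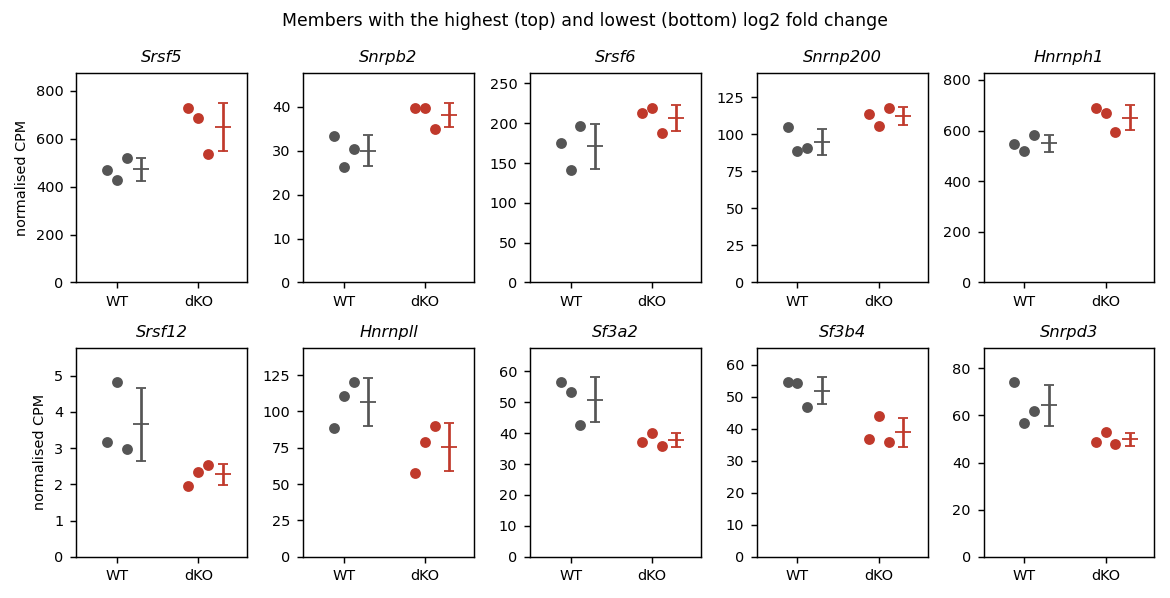
Normalised CPM in each of the 6 libraries for the members at either end of the range of log2 fold changes (5 highest in the top row, 5 lowest in the bottom row); each axis starts at 0. Points are libraries in the order of their replicate numbers and bars the mean ± SD (n = 3). The groups were apart in each panel other than Srsf6 and Hnrnpll.

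The hnRNPs coat nascent transcripts and take part in splicing, export and stability. Of 20, 13 had a log2 fold change above 0, with a median of 0.06 (0.02 to 0.13 over the alternatives), and 1 had an unadjusted p under 0.05. Per kilobase of its longest coding transcript, Hnrnpa2b1, which binds UAG-containing RNA, stood highest of all members at 769 CPM per kb in WT and 735 in dKO. Its levels were 1308, 1332 and 1345 CPM in WT and 1226, 1385 and 1198 CPM in dKO, which overlapped (-0.07 ± 0.12, adjusted p = 0.831). Hnrnpa3, a close relative, stood at 849 to 1045.5 CPM in WT and at 931 to 981 CPM in dKO (0.05 ± 0.13, adjusted p = 0.874). Hnrnpu, a scaffold of chromatin-bound RNA, stood at 689 to 784 and at 734 to 802 CPM (0.06 ± 0.12, adjusted p = 0.831). For these abundant hnRNPs the libraries of the groups were interleaved.

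Hnrnpa1, which promotes exon skipping, had 303, 279.7 and 255 CPM in WT and 346, 308 and 302 CPM in dKO (0.19 ± 0.11, adjusted p = 0.385), with a slight overlap. Hnrnph1, which binds runs of G, had 547, 518 and 584 CPM in WT and 688.5, 668 and 596 CPM in dKO (0.24 ± 0.12, edgeR adjusted p = 0.291). Its groups were apart, with dKO 3 again nearest to WT. The groups were also apart for Hnrnpm (211 to 257 against 262 to 282 CPM) and Hnrnpul2 (246 to 276 against 225 to 244 CPM), and for Hnrnpdl and Hnrnpl below, all named after their values were seen. In Hnrnpm, 1149 exonic bases are shared with March2 on the same strand, and in Hnrnpul2 360 with AC129217.1, so both values are uncertain.

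Hnrnpll, the hnRNP known for CD45 splicing in T cells, had the lowest log2 fold change of the hnRNPs. It stood at 88.3, 111 and 120.0 CPM in WT and at 57.7, 79.0 and 90.0 CPM in dKO. Of the dKO libraries only dKO 3 reached the WT range, whose lowest library was WT 1. The level rose with the replicate number in both groups, and each dKO library lay below the WT library of its number. With the number as a block edgeR called the gene lower (-0.50, adjusted p = 0.0326), but the labels state no pairing. The means were 106 ± 16.3 and 75.6 ± 16.4 CPM (SD, n = 3), with a log2 fold change of -0.49 ± 0.17 (SE; edgeR adjusted p = 0.141). Without WT 1 the gene was called lower (-0.61, adjusted p = 0.0466), and over the alternatives its log2 fold change ranged from -0.65 to -0.33 and its adjusted p from 0.00614 to 0.375. Hnrnpl, its paralogue, which binds the same kind of CA-rich element, stood at 298, 344 and 285 CPM in WT and at 254, 275 and 263 CPM in dKO (-0.23 ± 0.11, edgeR adjusted p = 0.285). Hnrnpdl stood at 322 to 349 CPM in WT and at 361 to 424 CPM in dKO (0.24 ± 0.11, adjusted p = 0.27). The other 10 hnRNPs had log2 fold changes of -0.10 to 0.16 and overlapping groups.

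SF3a and SF3b bind the U2 snRNP and hold it at the branch point. Of the 9 subunits 4 had a log2 fold change above 0 and 5 below, with a median of -0.16 (-0.20 to -0.08 over the alternatives). Sf3b1, the largest subunit, which clamps the branch point duplex, stood at 909.9, 841 and 888 CPM in WT and at 994, 979 and 955 CPM in dKO (0.15 ± 0.12, edgeR adjusted p = 0.533). Sf3b2 stood at 277 to 287 CPM in WT and at 301 to 305 CPM in dKO (0.10 ± 0.10, adjusted p = 0.645). Both pairs of groups were apart by a small step. Sf3b6, which contacts the branch point adenosine, stood at 111 to 122 and at 91.6 to 114 CPM (-0.16 ± 0.11, adjusted p = 0.46), overlapping.

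The members with the smallest p-values were also in this group. Sf3b4, which binds RNA upstream of the branch point (GRCm38 chr3:96172332-96177564), stood at 54.5, 54.3 and 46.9 CPM in WT and at 36.7, 44.0 and 35.8 CPM in dKO. All dKO libraries lay below all WT libraries. The log2 fold change was -0.42 ± 0.12 (edgeR adjusted p = 0.0768), and its p-value ranked 875th among all tested genes. Sf3a2, a U2-bound zinc finger subunit (chr10:80798198-80804924), stood at 56.4, 53.2 and 42.5 CPM in WT and at 37.0, 40.2 and 35.9 CPM in dKO (-0.43 ± 0.13, edgeR adjusted p = 0.0859). It too was lower in each dKO library, and it was called lower without WT 3 (-0.54, adjusted p = 0.0491). Across the alternatives the adjusted p ranged from 0.0268 to 0.273 for Sf3b4 and from 0.0252 to 0.267 for Sf3a2. Exons of Sf3a2 overlap Plekhj1 on the other strand over 429 bases and those of Sf3b4 overlap Gm17690 over 83 bases, so part of these reads may belong to the partner. Sf3a1 and Sf3a3, the other SF3a subunits, had log2 fold changes of -0.22 and -0.26, and Sf3b3 and Sf3b5 of 0.11 and 0.01, all with overlapping groups.

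Sm proteins form the ring on U1, U2, U4 and U5 snRNA, and the U1 and U2 proteins with similar symbols sit beside it. Among 11 tested, 5 had a log2 fold change above 0 and 6 below (median -0.06, and -0.13 to -0.01 over the alternatives). Snrpd3, a ring subunit (chr10:75517551-75537381), stood at 74.0, 56.7 and 62.0 CPM in WT and at 48.6, 53.1 and 47.7 CPM in dKO (-0.37 ± 0.12, edgeR adjusted p = 0.112). Its groups were apart, though WT 2 lay close to dKO 2, and its exons overlap Gucd1 on the other strand over 113 bases. Snrpb2, which binds a loop of U2 snRNA, stood at 33.3, 26.3 and 30.5 CPM in WT and at 39.7, 39.7 and 35.0 CPM in dKO (0.34 ± 0.13, edgeR adjusted p = 0.155). It was higher in each dKO library, opposite to Snrpd3.

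Snrpb, which encodes the B and B' ring subunits, stood at 244, 232 and 211 CPM in WT and at 204, 204 and 179.7 CPM in dKO (-0.23 ± 0.11, edgeR adjusted p = 0.274), with the groups apart. Snrpe, another subunit, stood at 109.8 to 133 and at 115 to 133 CPM (0.02 ± 0.11, adjusted p = 0.935), and Snrpg at 108 to 113 and at 118 to 127 CPM (0.15 ± 0.10, adjusted p = 0.433). The ring subunits, which are used in equal number, thus had log2 fold changes on both sides of 0. Groups were also apart for Snrpa, a U1 protein whose exons overlap BC024978 on the other strand over 117 bases (-0.26 ± 0.12), and Snrpd2 (0.17 ± 0.10), named after their values were seen. Snrpa1, Snrpc, Snrpd1 and Snrpf had log2 fold changes of -0.16 to 0.09 and overlapping groups. Snrpn, an imprinted Sm gene used mostly in brain, had 5, 8 and 5 reads in WT and 0, 3 and 2 in dKO. These counts were too few to test, and 0 reads in dKO 1 allow up to 0.522 CPM there (counting error only).

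The snRNP-specific proteins included Snrnp70, which binds the first stem loop of U1 snRNA. It stood at 532, 499.8 and 513 CPM in WT and at 490.3, 501 and 441 CPM in dKO (-0.11 ± 0.11, adjusted p = 0.659). Only dKO 2 reached the WT range. Snrnp200, the helicase that unwinds U4 from U6 snRNA, stood at 105, 88.8 and 90.7 CPM in WT and at 114, 106 and 118 CPM in dKO (0.25 ± 0.11, edgeR adjusted p = 0.218), with the groups just apart. Snrnp48, of the minor spliceosome, stood at 84.2 to 95.2 and at 77.2 to 86.9 CPM (-0.07 ± 0.10, adjusted p = 0.758). The other minor spliceosome proteins Snrnp25 and Snrnp35 had log2 fold changes of -0.30 and 0.05, and Snrnp27 and Snrnp40 of -0.15 and -0.04. Over the family the median was -0.07 (-0.14 to -0.03 over the alternatives), with 2 of 7 above 0.

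Pooled over the families, the members had a trend with GC content, also present more weakly over all genes, that the choice by symbol did not use. Across the 58 genes, which share the same 6 libraries and are not replicates, the log2 fold change had a Spearman rho of -0.38 with the GC content of the longest coding transcript. It was -0.12 over all 13221 tested genes with a value (84.2%) and -0.20 over those with at least 10 CPM. By family the rho was -0.72 in 9 SF3a and SF3b genes, -0.47 in 11 Sm and U1 or U2 genes and -0.37 in 11 SR genes. In 20 hnRNPs it was -0.14 and in 7 snRNP-specific genes -0.04. These rest on few genes, and a difference between families was not tested. The 23 members below 45% GC had a median log2 fold change of 0.07, with 15 above 0. The 18 members with at least 50% GC had a median of -0.12, with 13 below 0. Genes with at least 10 CPM gave 0.07 and -0.05 in these classes. Sf3a2 and Sf3b4 belong to the GC-rich class, whereas Srsf5, Hnrnpll and Srsf12 lie near 45%. With the length of that transcript the rho was 0.28 over the members and 0.12 over all genes. The part of library preparation in these trends was not tested.

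**Figure D4:**
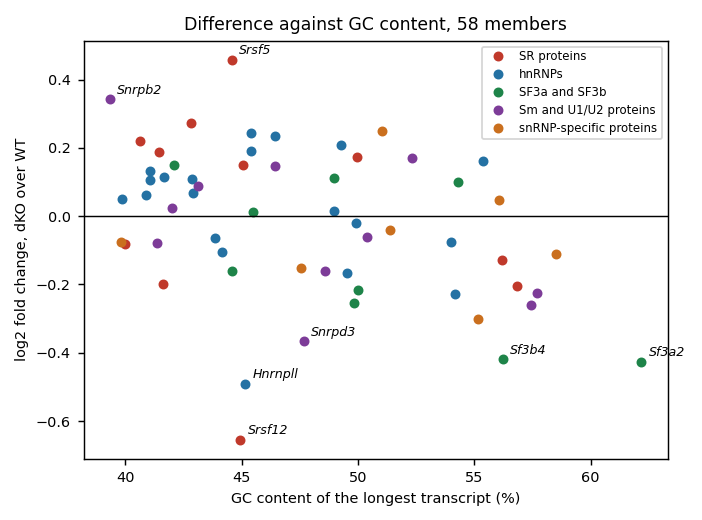
Log2 fold change of dKO over WT against the GC content (%) of the longest coding transcript for the 58 tested members, coloured by family. Of the members with at least 50% GC, 13 of 18 lie below 0, and of those below 45% GC, 15 of 23 lie above 0.

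Nr4a receptors bind DNA as monomers at the NBRE, AAAGGTCA. RefSeq promoters (GRCm38.p6, 250 bases before to 50 after the start) were matched by symbol for 52 of the 59 genes. The NBRE was present on either strand in 2 of them, Sf3b3 and Snrpf (3.85%), against 1.35% of the 11741 tested genes and 1.7% of all 27025 genes with a promoter. The shorter AGGTCA, which is also the end of the NBRE, was present in 17.3%, 16% and 18.1%. The upstream bases of both genes are shown because they hold the full site, in capitals (as its reverse complement in Sf3b3), at chr8:110846804-110847053 and chr10:93589659-93589908, both on the minus strand.
Sf3b3: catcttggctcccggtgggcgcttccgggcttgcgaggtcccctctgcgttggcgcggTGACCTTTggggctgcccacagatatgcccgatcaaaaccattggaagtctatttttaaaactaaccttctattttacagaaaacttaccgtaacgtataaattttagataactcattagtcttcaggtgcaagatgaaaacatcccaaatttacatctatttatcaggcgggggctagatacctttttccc
Snrpf: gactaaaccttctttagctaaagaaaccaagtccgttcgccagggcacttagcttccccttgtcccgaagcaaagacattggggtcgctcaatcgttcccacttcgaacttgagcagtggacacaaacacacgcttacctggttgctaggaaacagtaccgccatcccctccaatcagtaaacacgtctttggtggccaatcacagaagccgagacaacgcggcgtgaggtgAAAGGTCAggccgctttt
The site began 192 bases before the RefSeq start in Sf3b3 and 18 bases before it in Snrpf. The GENCODE model of Snrpf begins further upstream, at 93589706, and so holds the site within the gene. Sf3b3 stood at 57.2 to 78.5 CPM in WT and at 69.4 to 72.8 CPM in dKO (0.11 ± 0.12, adjusted p = 0.68), and Snrpf at 61.6 to 76.2 and at 58.7 to 70.6 CPM (-0.08 ± 0.12, adjusted p = 0.774). In both, the groups overlapped. Exons of Snrpf overlap Ccdc38 over 567 bases and 4933408J17Rik over 168 bases, both on the other strand. Those of Sf3b3 overlap Cog4 on the other strand over 102 bases. Part of these reads may belong to the partners. A match of letters is not a bound site.

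A core of the ETS family site, CCGGAAG, was present on either strand in 18 of the 52 promoters (34.6%), against 18.2% of promoters of tested genes and 9.93% of all. It occurred in each SF3a gene, for which the bases around it are shown with the core in capitals (reverse complement in Sf3a3): Sf3a1 at chr11:4160307-4160353, Sf3a2 at chr10:80798619-80798705 and Sf3a3 at chr4:124714731-124714817, all on the plus strand of GRCm38.p6.
Sf3a1: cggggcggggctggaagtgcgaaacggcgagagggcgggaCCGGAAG
Sf3a2: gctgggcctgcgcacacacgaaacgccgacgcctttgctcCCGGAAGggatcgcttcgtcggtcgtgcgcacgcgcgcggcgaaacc
Sf3a3: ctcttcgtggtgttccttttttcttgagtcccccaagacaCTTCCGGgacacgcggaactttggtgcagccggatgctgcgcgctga
The Sf3a2 stretch lies within the GENCODE model of that gene, which begins at 80798198. The core was also present before the RefSeq start of Srsf5 (log2 fold change 0.46) and Snrpb2 (0.34), so members with it lay on both sides of 0. CCAAT was present in 46.2% of the members' promoters and in 42.9% of those of tested genes.

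Other genes of the splicing pathway were counted in 10 lists with 173 genes outside the members, of which 168 were tested. Of these 5 were called higher and 3 lower (edgeR), where the whole table gave 2.15% and 1.17%. Mbnl1, a regulator of alternative exons in differentiation, rose from 1372, 1213 and 1489 CPM in WT to 2900.1, 2666 and 2409.5 CPM in dKO (0.97 ± 0.14, edgeR adjusted p = 0.00378). Its groups were far apart, and its call was kept without any 1 library (adjusted p up to 0.0358). Ythdc1, a nuclear reader of N6-methyladenosine, averaged 317 ± 18.7 CPM in WT and rose to 493 ± 73.3 CPM in dKO (SD, n = 3), with a log2 fold change of 0.64 ± 0.13 (edgeR adjusted p = 0.0187). Rbm25, which acts on 5' splice site choice, likewise rose, with 359 ± 27.4 CPM in WT against 526 ± 31.6 CPM in dKO (0.55 ± 0.11, edgeR adjusted p = 0.022). These belong to the 45 tested other RNA-binding regulators, of which 3 were higher and 0 lower (median 0.04). Ptbp1, a repressor of exons in the same list, averaged 153 and 209 CPM (0.45 ± 0.12, adjusted p = 0.0597).

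Rsrc2 was the called gene of the 23 SR-related proteins, of which 19 had a log2 fold change above 0 (median 0.12). It rose, with 138 ± 8.26 CPM in WT against 199 ± 12.7 CPM in dKO (SD, n = 3), a log2 fold change of 0.52 ± 0.10 (edgeR adjusted p = 0.0171). Upf3b, which links the exon junction complex to nonsense-mediated decay, rose to 123 ± 4.11 CPM in dKO against 87.7 ± 9.22 CPM in WT (0.49 ± 0.11, edgeR adjusted p = 0.0272), while the other 5 exon junction genes were not called. On the other side, Gemin6, a subunit of the SMN complex that loads Sm rings onto snRNA, fell from 5.64, 5.56 and 4.57 CPM in WT to 1.42, 2.35 and 2.31 CPM in dKO (-1.34 ± 0.29, edgeR adjusted p = 0.0257). The values are low but the groups were well apart. Of the 15 SMN complex and assembly genes, 12 had a log2 fold change below 0 (median -0.11). Lsm1, of the cytoplasmic ring that acts in mRNA decay, fell to 27.1 ± 5.14 CPM in dKO against 42.1 ± 3.88 CPM in WT (-0.64 ± 0.14, edgeR adjusted p = 0.0317). Lsm2, shared by that ring and the U6 snRNA ring, fell to 21.0 ± 3.18 CPM against 32.4 ± 4.08 CPM (-0.63 ± 0.15, edgeR adjusted p = 0.0419), a call that was lost without any 1 library (adjusted p up to 0.133). Of 14 LSm genes 9 lay below 0 (median -0.09).

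In the remaining lists 0 genes were called by edgeR: 8 U2 auxiliary and branch point factors (median -0.16), 8 SR protein kinases (0.19), 30 proteins of U5, the tri-snRNP and the Prp19 complex (0.09, 20 above 0), 13 helicases (0.00) and 8 minor spliceosome proteins (0.06). Their smallest adjusted p was that of Snw1, a Prp19-associated protein, at 85.4 ± 10.2 and 114.5 ± 3.09 CPM (SD, n = 3; 0.42 ± 0.11, edgeR adjusted p = 0.0533). Of the 8 called genes, Mbnl1 kept its call in each of the 6 fits that left out 1 library and Lsm2 in 0 of them. Rsrc2 kept it in 3, and Ythdc1, Rbm25, Upf3b, Gemin6 and Lsm1 in 2. The number called higher was 2 without WT 2, 3 without WT 3, 1 without dKO 1 and 1 without dKO 2, and the number called lower was 0 without WT 2 or dKO 1 and 1 without WT 3, dKO 2 or dKO 3. In the 6 fits that left out 1 library, 0.553% to 2.75% of all genes were called higher and 0.258% to 2.32% lower. Without the filter on low counts 11 were higher and 5 lower (2.79% and 2.07% of all genes). DESeq2 called 8 higher and 3 lower (3.42% and 1.64% of its genes).

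**Figure D5:**
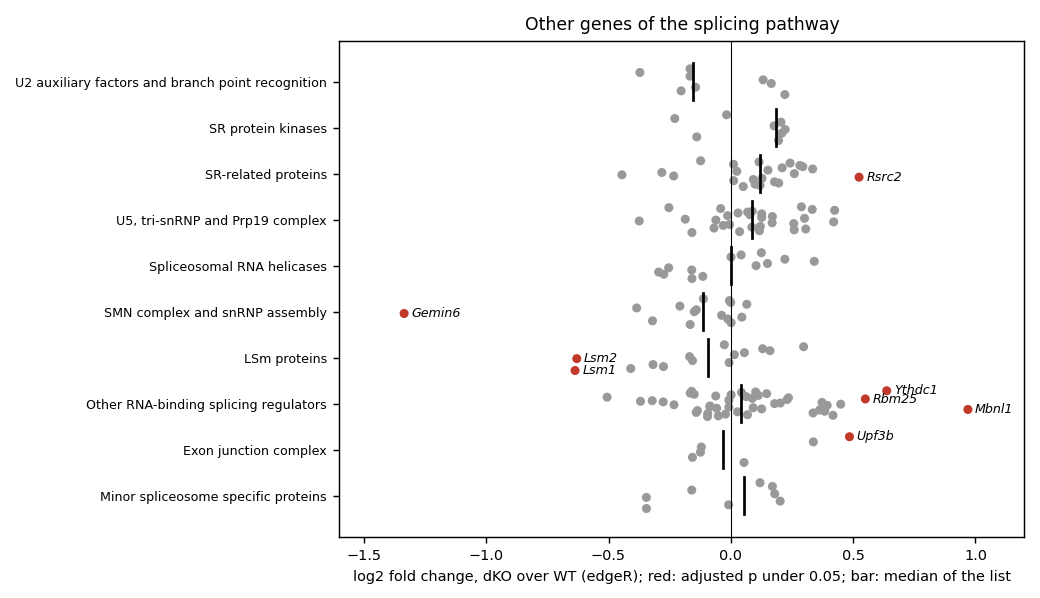
Log2 fold change of dKO over WT for each tested gene of the 10 lists of other splicing genes (a gene in more than 1 list is drawn in each). Red points have an edgeR adjusted p under 0.05 (8 genes), grey points do not, and the vertical bar is the median of the list.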

How the data were processed

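Total RNA came from sorted hepatic CD4+ T cells. Libraries were prepared with the NEBNext Ultra II FS kit, which fragments by enzyme, and read from a single end on a NovaSeq. The submitters' notes name cutadapt and Bowtie2 and the genome as mm10 and as GRCm39. Neither versions nor the annotation, counting tool or use of strand were given in the sources used here. The methods give the mouse genome as the target, and Bowtie2 aligns without introns, so reads over exon junctions may be partly uncounted.

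The tested values were the raw read counts for each gene symbol, as deposited by the authors. They also deposited a normalised table called TPM, whose values are CPM: 100% of its 170580 values gave back the deposited count to within 0.01 reads, and edgeR on these recovered reads called the same number of genes (520). It was used in alternatives only, whose design had assumed TPM.

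Genes were kept by filterByExpr (minimum count 10, minimum total 15), which left 15694. TMM factors were 0.964 to 1.04. The dKO and WT libraries were compared with edgeR 4.0.16 in R 4.3.3 (robust quasi-likelihood F-test, two-sided, group as the only term). Benjamini-Hochberg adjustment ran over every tested gene, and genes under 0.05 were called. CPM values are normalised by these factors, except for marker sums, which use the counted reads alone. Adjusted p values are those of edgeR where no tool is given. As SE, the text gives the log2 fold change over the square root of F, and intervals are 95%. Each p-value reflects spread among the 3 libraries of a group, which edgeR moderates towards the spread of the other tested genes. The SE and the intervals rest on the same moderated spread. No wider source of variation is covered. Within each group every pair of libraries differed beyond counting error (chi-square of 6.68 to 36.0 for each degree of freedom). Totals of 5747744 to 11078184 reads limit precision for genes of a few CPM. The procedure was tested on simulated data.

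Members and lists were chosen with earlier results of these data known, so no set test was made. Genes named are the 5 highest and 5 lowest log2 fold changes of members, the 3 members of highest mean CPM in each family, Hnrnpll, Srsf1, Srsf3, Hnrnpa1, Hnrnpu, Sf3b1, Snrnp70 and Snrpn, a selection of up to 4 genes per pathway list with the smallest p, and Nr4a1 to Nr4a3 and Foxp3. Exceptions are marked. Coordinates, transcript lengths, GC content and exonic overlaps of at least 50 bases come from GENCODE vM21 (GRCm38), with the longest coding transcript per gene, and promoters from RefSeq (GRCm38.p6). Alternatives were other scalings, DESeq2 1.42.0, limma 3.58.1 (voom, and log2(CPM + 1) or log2(CPM + 0.5)), other filters and no robust estimation. Further alternatives were a replicate block, each library left out, recovered reads (chosen after seeing the data) and the study's thresholds. These thresholds (unadjusted p under 0.05 with a fold over 1.5 or less than 0.5) were applied to the edgeR values, and 0 members and 5.91% of all genes passed.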

Additional observations from a re-analysis of the deposited data

How the results depend on the processing

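The number of members called stayed at 0 with the other scalings, limma, the stricter filter, no robust estimation and the study's thresholds. It was 1 higher with DESeq2, 1 higher and 3 lower without a filter on low counts, and 0 to 1 lower with a library left out (1 without WT 1 and 1 without WT 3). The number of members whose groups did not overlap was 21 to 34 with a library left out. That was 36.2% to 58.6% of the members, against 32% to 37.5% of all tested genes in these fits. With all 6 libraries the shares were 34.5% and 25%. Of the pathway genes, 8 were higher with DESeq2, 11 higher and 5 lower without a filter, 2 higher and 1 lower at the study's thresholds, and 1 to 7 higher and 0 to 2 lower with a library left out. Of all genes, DESeq2 called 3.42% higher and 1.64% lower, and edgeR without a filter 2.79% and 2.07%. The study's thresholds passed 5.91%. With a library left out, 0.553% to 2.75% were higher and 0.258% to 2.32% lower. Directions turned only near 0 among the named genes: Snrpe had -0.0064 with upper quartile scaling and -0.042 to 0.085 with a library left out, and Hnrnpa3 had -0.0053 to 0.142. Of 1240 other values of named genes, 1185 kept direction and side of the threshold. Each family median kept its sign in all 18 alternatives.

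With the replicate number as a block, 1 member (Hnrnpll, adjusted p = 0.0326) was called lower, 0 were higher, and 5 pathway genes were higher and 3 lower. Of all genes that fit called 1.96% higher and 1.17% lower. Deviations of libraries with the same number correlated at 0.12, 0.06 and -0.12, and those with different numbers at -0.20 to 0.21. These correlations showed no pairing by number. Deviations within a group of 3 sum to 0, so the correlations cannot exclude a pairing. Among the stress genes, named after their values were seen, some rose with the number in both groups. Hspa1a stood at 639, 3249 and 4354.5 CPM in WT 1 to 3 and at 360, 1662 and 2306 CPM in dKO 1 to 3. Hspa1b, Fos, Jun and the counted reads had the same order, but Atf3, Dusp1, Egr1, Fosb, Ier2 and Junb did not in dKO. The reason was not tested. Depth limits Srsf12 and Snrpn most, and exons shared with other genes limit Sf3a2, Srsf4, Hnrnpm and Snrpf.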

Other observations

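As checks of the labels, Nr4a1 stood at 328, 676 and 818 CPM in WT 1 to 3, with 711, 1033 and 639 CPM in dKO 1 to 3 (log2 fold change 0.39 ± 0.37, edgeR adjusted p = 0.65). Nr4a3, which the design leaves intact, averaged 179 and 400 CPM with overlapping groups (1.16 ± 0.37, edgeR adjusted p = 0.17). Foxp3, the transcription factor that defines Tregs, averaged 86.8 and 194 CPM and was called higher (1.16 ± 0.18, edgeR adjusted p = 0.00954). Ddx5, an abundant helicase of the pathway lists, stood at 1981, 2002 and 2605 CPM in WT 1 to 3, against 2914.5, 2998 and 2434 CPM in dKO 1 to 3 (0.34 ± 0.16, edgeR adjusted p = 0.256). As for Srsf5, Srsf6 and Hnrnph1, dKO 3 was the lowest of the libraries labelled dKO.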
